A study of Mus musculus with 26 samples.

Results

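Gene expression of mouse pancreatic islets after 4 h at 11 mM glucose was compared with that at time 0, the end of an overnight period at 3 mM glucose. The comparison rests on 4 of the 26 arrays of the series, 2 per group, taken by their labels and paired by biological replicate number, and it covers all 12580 genes tested. All islets came from wild-type C57BL/6J male mice of 5 weeks and recovered for 1 day at 11 mM after isolation. A group after 1 h at 11 mM (2 arrays) belongs to the same time course. Young islets cultured for 2 days at 11 mM (replicates 1 and 2) or at 3 mM (2 arrays) give a second comparison of the same glucose concentrations, on other arrays. The general protocol text gives a culture of 2 days, whereas the labels of time 0 give an overnight period. No group stayed at 3 mM for the same 4 h, so glucose, hours in culture and time of day cannot be told apart. Pooling of islets across mice is not described in the labels, and the p-values therefore reflect only how far these particular arrays spread.

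Islets are clusters of endocrine cells, most of them beta cells, which take up glucose, metabolise it and secrete insulin in proportion. Glucose metabolism in beta cells also acts on transcription, through ChREBP, a factor activated by sugar phosphates, and through calcium and cyclic AMP signals. When nutrients or amino acids run low, or the endoplasmic reticulum is stressed, phosphorylation of the initiation factor eIF2α favours translation of the transcription factor ATF4. ATF4 with C/EBP partners then raises CHOP, amino acid transporters and enzymes of amino acid synthesis. FOXO factors, which insulin signalling keeps out of the nucleus, raise another group of low-fuel genes.

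The values are MAS5 intensities, and a change is given as the difference of log2(intensity + 16) between 4 h and time 0, with limma's standard error (SE), which understates changes of dim genes. On the 6 time course arrays the median intensity was 29 to 34 and the 5′ to 3′ ratio of the Gapdh control was 0.194 to 0.277, with overlapping values at 4 h and time 0. The same ratio of the beta-actin control did separate them, at 0.279 and 0.298 at 4 h against 0.354 and 0.367 at time 0, and the part of this gap in the results was not tested. Beta cell markers were bright at both times: Ins2 (insulin) read 3424 and 3230 at 4 h and 3765 and 3644 at time 0, and Iapp (amylin) read 8120 and 7697 at 4 h and 8305 and 7803 at time 0. Neither passed the test. Among other beta cell markers, Slc2a2 passed as lower at 4 h (log2 change -0.68) and Pdx1 as higher (0.77). Both lost their calls without the replicate block. Islet hormones of other endocrine cells did not pass, with Gcg (glucagon) at 7648 and 7072 at 4 h and 7501 and 6790 at time 0. Of 8 markers of other islet cells, 2 fell and none rose (25.0%, against 26.2% of all genes called). The 2 were Irx2 (log2 change -0.43) and Hhex (-0.45). These falls lost their calls without the replicate block. Markers of acinar cells, the enzyme-secreting cells around islets, were uneven: the summed intensity of 12 markers was 2021 and 1026 at 4 h, against 7387 and 926 at time 0. Their high level at time 0 was in replicate 1 alone, and 1 of the 12 rose and 1 fell (16.7%, against 26.2% of all genes). Without replicate 2 of 4 h, 11 of the 12 fell. Markers of duct, endothelial and macrophage cells had 1 fall each, among 5, 10 and 11 tested, and no rise. Of 8 stellate cell and fibroblast markers 3 fell (37.5%), and the sum of the 8 was 1379 and 1434 at 4 h against 1864 and 1847 at time 0. The 3 falls were 1 without the replicate block and 0 without replicate 1 of time 0. No marker of these 5 cell types or of the other islet cells was at 0 on any of the 4 arrays, which need not mean expression. The lowest value was 2, in an endothelial marker. On all 6 time course arrays, 2 endothelial markers and 1 other islet cell marker did not exceed the array median. The part of these cells in the results below was not tested. In bulk islets, fewer cells of a type and less RNA per cell cannot be told apart.

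After 4 h, 3290 genes differed from time 0 (26.2% of those tested, limma, Benjamini-Hochberg adjusted p under 0.05), 1598 of them higher (12.7%) and 1692 lower (13.4%). Most changes were small. The median called rise was 0.48 and the median called fall was -0.51 on the log2 scale, and 199 genes (1.58%) changed at least 2-fold, 84 higher (0.668%) and 115 lower (0.914%). At an unadjusted p under 0.05 there were 4738 genes (37.7%). The extreme falls were larger than the extreme rises: 9 genes fell and 4 rose by a log2 change of at least 2, and Ddit3 and Trib3 fell by more than 3. The 2 values at 4 h and the 2 at time 0 did not overlap for 6501 genes (51.7%). The test compares arrays of the same replicate number, and without this replicate block 687 genes passed (5.46%), 333 higher (2.65%) and 354 lower (2.81%), all of them among the 3290. The count was 1197 without replicate 1 of time 0 and 1481 without replicate 2 of time 0.

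**Figure D1:**
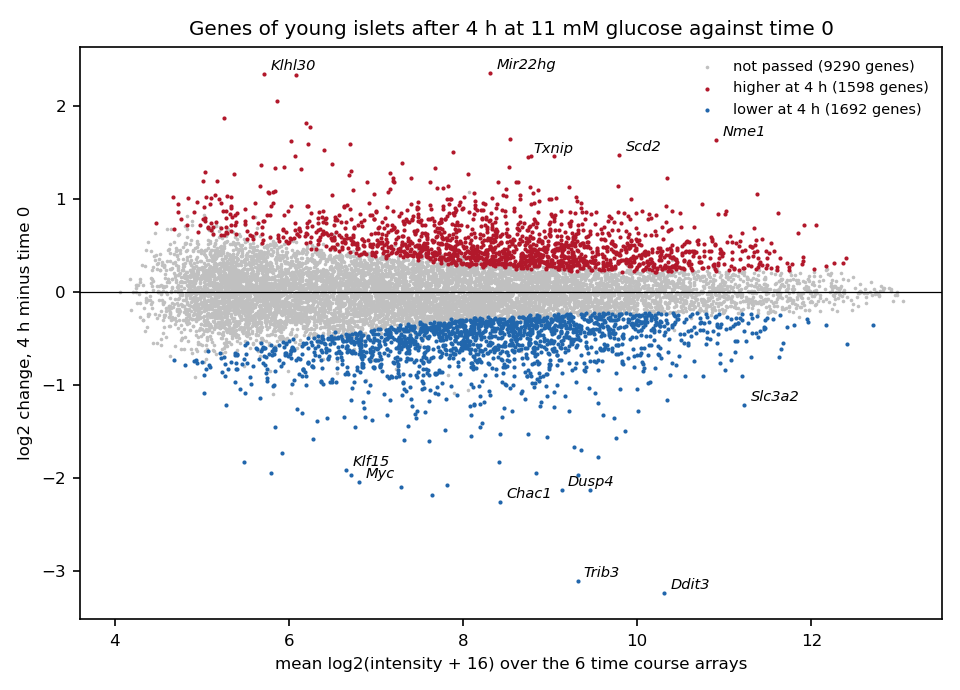
The log2 change between 4 h and time 0 (vertical axis) against the mean log2(intensity + 16) over the 6 time course arrays (horizontal axis), 1 point per gene, red for the 1598 genes higher at 4 h, blue for the 1692 lower and grey for the rest. Ddit3 and Trib3 stand below all other genes, and Mir22hg, Klhl30 and the unlabelled Ager are the highest.

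**Figure D2:**
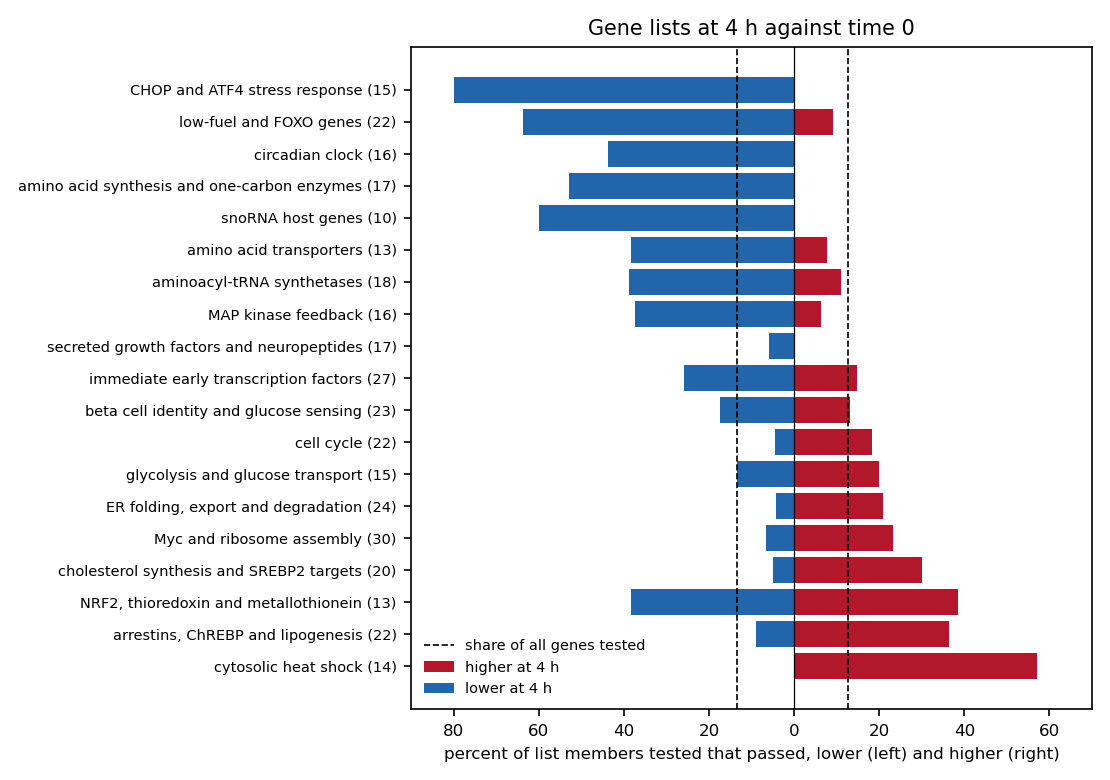
Share of the tested members (number in brackets) of 19 pathway lists that passed the test, lower at 4 h to the left and higher to the right, ordered by the list's median change, with dashed lines at the share of all genes (13.4% lower, 12.7% higher). The stress response list has 12 of 15 members lower and the heat shock list 8 of 14 higher.

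Genes of the CHOP and ATF4 stress response fell together and held the 3 deepest falls of the comparison. Of 15 members tested, 12 fell and none rose, with a median log2 change of -0.76 against -0.01 over all genes, and 10 of the 12 also passed without the replicate block. Ddit3, which encodes the stress transcription factor CHOP, read 308 and 423 at 4 h against 3681 and 3397 at time 0. The groups lay far apart, a 9.68-fold lower mean at 4 h (log2 change -3.24, SE 0.11, adjusted p 1.81e-07). Trib3, a pseudokinase that binds ATF4 and the kinase AKT, read 179 and 152 at 4 h against 1622 and 1464 at time 0 (log2 change -3.10, SE 0.13, adjusted p 3.25e-07). Chac1, an enzyme that degrades glutathione, read 162 and 132 at 4 h against 770 and 752 at time 0 (log2 change -2.26, SE 0.13, adjusted p 3.17e-06). In all 3 genes the replicates of a group were close. That the groups did not overlap was a condition for naming the largest falls. Further down, Ppp1r15a, the GADD34 subunit that directs phosphatase 1 to eIF2α, read 258 and 270 at 4 h against 697 and 935 at time 0 (log2 change -1.56). Cebpb, a C/EBP transcription factor, read 117 and 191 at 4 h against 334 and 416 at time 0 (log2 change -1.23). Eif4ebp1, an inhibitor of cap-dependent translation, read 465 and 644 at 4 h against 976 and 1348 at time 0. Its fall of -1.05 lost its call without the replicate block (adjusted p 0.0672). Atf4 itself, singled out after its values were seen, fell by 0.83 on the log2 scale, with 1719 and 1582 at 4 h against 2882 and 3028 at time 0. The members that did not pass, also singled out afterwards, were Atf5, Stc2 and Ddit4, with log2 changes of -0.11, 0.01 and 0.24.

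**Figure D3:**
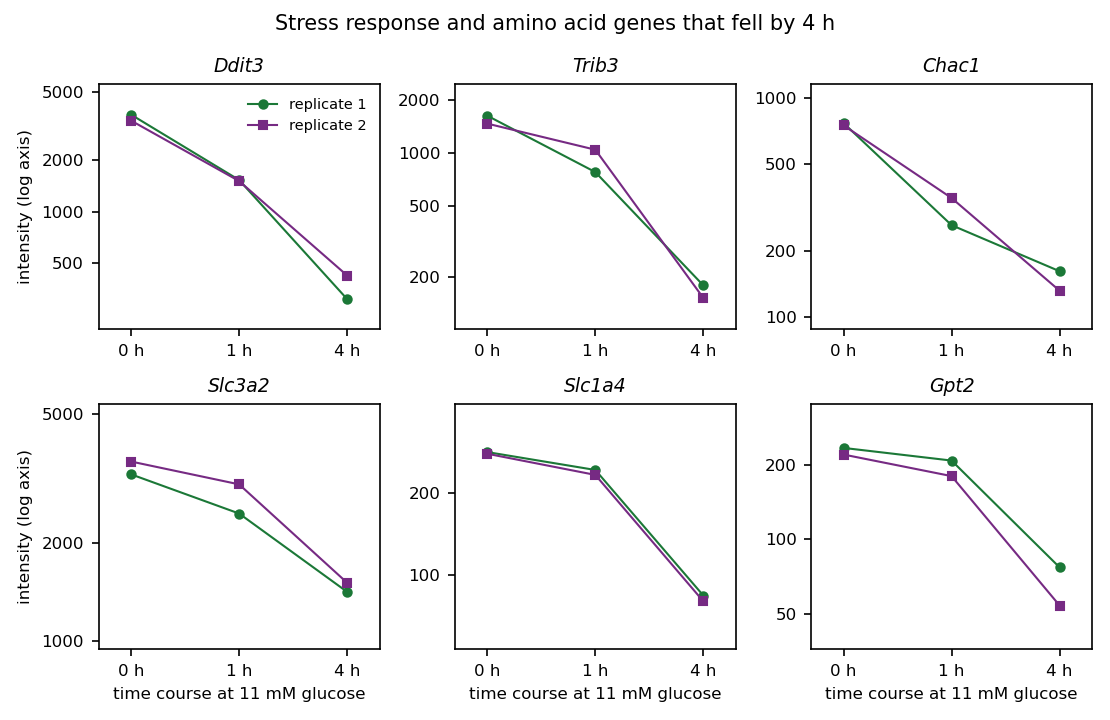
Intensity on a log axis at time 0, 1 h and 4 h for 6 genes of the stress and amino acid lists, 1 line per biological replicate. Ddit3 and Chac1 were already lower at 1 h, whereas Slc1a4 and Gpt2 dropped between 1 h and 4 h, and the 2 replicates ran close together in each panel.

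Promoters of these genes were searched for a composite C/EBP-ATF core, the kind of element to which ATF4 and C/EBP proteins bind as a pair. The letters searched were TGATGNAA on both strands, in the 300 bases from 250 before to 50 after each start site (RefSeq, build GRCm38.p6), where 3.97% of 32851 promoters hold a match. A match was present for 5 of the 11 fallen stress genes with a promoter entry and for none of the 3 that did not pass. It was present for 3 of 8 fallen enzymes of amino acid synthesis and none of 7 others, for 1 of 4 fallen amino acid transporters and 1 of 4 others, and for 2 of 5 fallen tRNA synthetases and 3 of 7 others. Trib3 (chr2:152344011-152344310, minus strand), Chac1 (chr2:119350992-119351291, plus strand) and Slc1a4 (chr11:20332664-20332963, minus strand) are shown as the 3 genes with a match among the deepest falls of their lists, with the match in capitals.
Trib3: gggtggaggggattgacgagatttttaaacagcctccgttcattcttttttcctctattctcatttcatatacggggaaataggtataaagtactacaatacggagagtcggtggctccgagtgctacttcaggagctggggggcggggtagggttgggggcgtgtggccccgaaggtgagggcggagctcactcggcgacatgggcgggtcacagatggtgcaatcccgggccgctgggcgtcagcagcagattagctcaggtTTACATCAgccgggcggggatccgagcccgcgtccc
Chac1: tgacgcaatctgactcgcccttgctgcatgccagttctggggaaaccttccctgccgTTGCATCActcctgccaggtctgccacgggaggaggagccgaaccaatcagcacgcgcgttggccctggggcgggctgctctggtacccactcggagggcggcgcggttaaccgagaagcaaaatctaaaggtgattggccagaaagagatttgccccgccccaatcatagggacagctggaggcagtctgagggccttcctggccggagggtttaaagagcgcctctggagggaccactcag
Slc1a4: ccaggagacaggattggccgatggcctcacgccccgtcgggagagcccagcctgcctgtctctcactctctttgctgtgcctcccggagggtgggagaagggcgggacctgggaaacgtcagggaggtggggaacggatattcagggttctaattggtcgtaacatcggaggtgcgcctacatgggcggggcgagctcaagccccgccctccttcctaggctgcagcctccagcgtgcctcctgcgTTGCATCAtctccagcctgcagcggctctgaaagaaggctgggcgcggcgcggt

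Genes that supply amino acids fell as a wider group. Of 17 enzymes of amino acid synthesis and one-carbon metabolism, 9 fell and none rose (52.9%, against 26.2% of all genes). The median log2 change was -0.35, and 4 of the 9 also passed without the replicate block. Gpt2, the mitochondrial alanine transaminase, read 77 and 54 at 4 h against 234 and 220 at time 0 (log2 change -1.59, SE 0.12, adjusted p 1.49e-05). Other, dimmer probe sets of Gpt2 gave -0.73, -0.64 and -0.60. Mthfd2, a mitochondrial folate enzyme, read 639 and 857 at 4 h against 1350 and 1598 at time 0 (log2 change -0.97, SE 0.08, adjusted p 1.55e-05). The groups were separate for both, as for 51.7% of all genes. Pck2, the mitochondrial PEP carboxykinase, fell by 0.65 and Got1, the cytosolic aspartate transaminase, by 0.63 on the log2 scale. Phgdh, the first enzyme of serine synthesis, and Shmt2, a mitochondrial serine hydroxymethyltransferase, fell by 0.51 and 0.50, and both lost their call without the replicate block (adjusted p 0.206 and 0.0611). Shmt2 also lost its call with the mean of its probe sets, and a dim set gave 0.09.

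Of 13 amino acid transporters, 5 fell, all 5 also without the replicate block, and 1 rose (46.2% called, against 26.2% of all genes). Slc3a2, the heavy chain shared by several transporters, read 1414 and 1508 at 4 h against 3253 and 3562 at time 0 (log2 change -1.21, SE 0.08, adjusted p 4.96e-06). Slc1a4, a carrier of small neutral amino acids, read 84 and 80 at 4 h against 284 and 280 at time 0 (log2 change -1.60, SE 0.11, adjusted p 4.96e-06). In both genes the spread within a group was small beside the gap. Slc7a1, a carrier of cationic amino acids, read 760 and 754 at 4 h against 1643 and 1773 at time 0 (log2 change -1.16). Slc6a9, a glycine carrier, fell by 1.11 and Slc7a5, the large neutral amino acid carrier that pairs with Slc3a2, by 0.85. The riser was Slc7a8, another light chain of Slc3a2, with 657 and 441 at 4 h against 481 and 348 at time 0 (log2 change 0.38, adjusted p 0.452 without the replicate block). Among 18 aminoacyl-tRNA synthetases, which charge tRNAs with amino acids, 7 fell and 2 rose (50.0%, against 26.2% of all genes). None of them passed without the replicate block. Cars had the deepest fall of these (-0.67), and Hars rose by 0.36. The 7 were 4 without replicate 1 of 4 h, 2 without replicate 1 of time 0 and 1 without replicate 2 of time 0.

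Low-fuel and FOXO genes were the other large group of falls. Of 22 tested, 14 fell (5 also without the replicate block) and 2 rose, which is 72.7%, against 26.2% of all genes. The median log2 change was -0.51. The 14 were 9 without replicate 2 of time 0. Depp1, a FOXO target linked to autophagy, read 219 and 609 at 4 h against 1294 and 2119 at time 0 (log2 change -2.13, SE 0.13, adjusted p 3.80e-06). Both replicates fell, but they differed in level, and the call was lost without the replicate block (adjusted p 0.073). Klf15, a factor that raises amino acid breakdown in fasting, read 40 and 37 at 4 h against 211 and 170 at time 0 (log2 change -1.92, SE 0.14, adjusted p 1.25e-05). Angptl4, a secreted inhibitor of lipoprotein lipase, read only 4 and 3 at 4 h against 69 and 40 at time 0 (log2 change -1.82), the low values lying far under the array median. Stbd1, a glycogen-binding protein, read 235 and 384 at 4 h against 892 and 1147 at time 0 (log2 change -1.70, SE 0.09, adjusted p 1.33e-06). Fbxo32, the ubiquitin ligase atrogin-1, read 55 and 77 at 4 h against 191 and 182 at time 0 (log2 change -1.32). Ccng2, a FOXO target that slows the cell cycle, read 188 and 443 at 4 h against 543 and 896 at time 0 (log2 change -1.22, adjusted p 0.199 without the replicate block). All 6 genes were lower at 4 h in both replicates, and their groups did not overlap. That adds little, as 51.7% of all genes did not overlap and list members were named for small p. Among falls outside the lists, Klhl24, a ubiquitin ligase adaptor, read 42 and 93 at 4 h against 356 and 335 at time 0 (log2 change -2.18). Stard5, a sterol-binding protein, read 241 and 272 at 4 h against 1245 and 874 at time 0 (log2 change -1.96), and Nabp1, a single-strand DNA-binding protein, fell by 1.95 on the log2 scale. The groups were separate in these 3 genes, which was a condition for naming them. N4bp2l1, Zim1, Akna, Rad51c and Lonrf1 had log2 changes of -2.07, -2.09, -1.97, -1.95 and -1.82, and Zim1, Akna and Rad51c were dim at 4 h (51 or less). Another probe set gave -0.53 for N4bp2l1 and -0.70 for Rad51c.

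Several feedback regulators of MAP kinase signalling fell, and immediate early genes moved in both directions. Of 16 feedback genes, 6 fell (3 also without the replicate block) and 1 rose, which is 43.8%, against 26.2% of all genes. Dusp4, a nuclear phosphatase of MAP kinases, read 184 and 279 at 4 h against 836 and 1313 at time 0 (log2 change -2.13, SE 0.08, adjusted p 2.39e-07). Dusp5, a phosphatase of ERK, fell by 1.22, Dusp16 and Dusp8, phosphatases of JNK and p38, by 1.18 and 1.12, and Spry2, an inhibitor of receptor signalling, by 0.81. Dusp5 and Spry2 lost their calls without the replicate block (adjusted p 0.15 and 0.106). Other probe sets of Dusp8 gave -1.19 and 0.24, the latter dim. Rgs16, which switches off G protein signals, rose by 1.12, with 208 and 374 at 4 h against 80 and 176 at time 0. The lower value at 4 h lay just above the higher value at time 0, and the call was lost without the replicate block (adjusted p 0.215). Among 27 immediate early transcription factors, 4 rose and 7 fell (40.7%, against 26.2% of all genes), 1 in each direction also without the replicate block. Without replicate 1 of time 0, 2 rose and 4 fell, and without replicate 1 of 4 h, 2 rose. Nr4a2, an orphan receptor induced by cyclic AMP and calcium, read 184 and 112 at 4 h against 39 and 40 at time 0 (log2 change 1.53, SE 0.20, adjusted p 3.02e-04). Other probe sets of Nr4a2 gave 0.37 to 1.39. Fos, a subunit of AP-1, read 249 and 265 at 4 h against 68 and 155 at time 0 (log2 change 1.19, adjusted p 0.0736 without the replicate block). Other AP-1 and related factors went the opposite way: Atf3, Maff and Jun fell, with log2 changes of -1.24, -1.15 and -1.05, and the 3 lost their calls without the replicate block (adjusted p 0.07, 0.199 and 0.332). Srf, which drives immediate early genes, read 233 and 203 at 4 h against 342 and 363 at time 0 (log2 change -0.66).

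Several genes of the circadian clock were lower at 4 h, repressors and outputs among them. Of 16 clock genes, 7 fell (4 also without the replicate block) and none rose, which is 43.8%, against 26.2% of all genes. The median log2 change was -0.38. Dbp, a PAR bZIP factor driven by CLOCK and BMAL1, read 528 and 437 at 4 h against 1517 and 1259 at time 0 (log2 change -1.49, SE 0.07, adjusted p 8.08e-07). Ciart, a repressor of the same pair, read 37 and 30 at 4 h against 123 and 104 at time 0 (log2 change -1.39). Bhlhe40, another repressor, read 135 and 113 at 4 h against 242 and 275 at time 0 (log2 change -0.97). The groups were apart in all 3, as for 51.7% of all genes. Nr1d2, the receptor REV-ERBβ, read 1545 and 1381 at 4 h against 2619 and 2374 at time 0 (log2 change -0.77). Nr1d1, its relative REV-ERBα, and Per2 fell by 0.97 and 0.48, with adjusted p of 0.072 and 0.156 without the replicate block. The hour of day at which the islets were taken is not given, so hours and glucose cannot be told apart here either. The Ciart promoter (chr3:95882179-95882478, minus strand, GRCm38.p6) is shown for its E-boxes, the letters CACGTG to which CLOCK and BMAL1 bind. It holds 3 of them, in capitals, and 7.15% of all promoters hold at least 1. Among clock genes with an entry, 1 of 5 that fell and 4 of 9 that did not pass had a match.
Ciart: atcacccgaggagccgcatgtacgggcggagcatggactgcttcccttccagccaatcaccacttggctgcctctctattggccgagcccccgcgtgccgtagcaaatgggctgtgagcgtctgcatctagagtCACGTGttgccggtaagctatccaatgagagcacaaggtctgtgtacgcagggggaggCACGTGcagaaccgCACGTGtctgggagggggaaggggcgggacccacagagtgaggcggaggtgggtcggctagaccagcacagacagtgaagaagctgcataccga

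The rises included genes of lipid synthesis. Of 22 genes of the arrestin, ChREBP and lipogenesis list, 8 rose and 2 fell (3 rises and no fall also without the replicate block). That is 45.5%, against 26.2% of all genes, with a median log2 change of 0.25. Without replicate 1 of either time the rises were 5. Txnip, an arrestin that binds thioredoxin and is a known target of ChREBP, read 884 and 773 at 4 h against 328 and 259 at time 0 (log2 change 1.45, SE 0.09, adjusted p 3.17e-06). Scd2, a fatty acid desaturase, read 1536 and 1460 at 4 h against 572 and 490 at time 0 (log2 change 1.47, SE 0.08, adjusted p 1.26e-06). Fasn, the fatty acid synthase, read 593 and 466 at 4 h against 224 and 248 at time 0 (log2 change 1.11, SE 0.12, adjusted p 1.01e-04). In each of the 3 the 4 h values were both above the time 0 values by a wide gap. Pgd, an enzyme of the pentose phosphate pathway, rose by 0.87, and G6pc2, an islet glucose-6-phosphatase, read 3219 and 2200 at 4 h against 2240 and 1355 at time 0 (log2 change 0.61). For G6pc2 the groups overlap, and both genes lost their calls without the replicate block (adjusted p 0.157 for Pgd and 0.305 for G6pc2). Some members of the list did not pass or fell. Arrdc4, its arrestin relative, read 105 and 122 at 4 h against 86 and 103 at time 0 (log2 change 0.23, adjusted p 0.274), and another probe set of Arrdc4 gave -0.60. Pklr, a pyruvate kinase, read 51 and 39 at 4 h against 54 and 48 at time 0 (adjusted p 0.576). Arrdc3 fell by 0.78, and Mlxipl, the gene of ChREBP, fell by 0.36, with adjusted p of 0.0552 and 0.532 without the replicate block. Of 20 genes of cholesterol synthesis, 6 rose and 1 fell (35.0%, against 26.2% of all genes). None of them passed without the replicate block, and fewer rose without either array of time 0. Idi1, the isopentenyl isomerase, had the largest rise of the list (0.73), with 161 and 242 at 4 h against 98 and 130 at time 0. Hmgcs1, the synthase that starts the pathway, and Cyp51, a sterol demethylase, rose by 0.47 and 0.45.

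Several cytosolic chaperones rose, and genes of folding, export and degradation at the endoplasmic reticulum were called about as often as all genes. Of 14 heat shock genes, 8 rose and none fell (57.1%, against 26.2% of all genes). The median log2 change was 0.32, and 2 of the 8 also passed without the replicate block. The rises were 2 without replicate 1 of time 0 and 5 without replicate 1 of 4 h. Dnajb1, a co-chaperone of HSP70, read 2466 and 2397 at 4 h against 1050 and 1488 at time 0 (log2 change 0.95, SE 0.13, adjusted p 4.42e-04). Another probe set of Dnajb1 gave 0.38. Dnaja1, another co-chaperone, read 4814 and 4728 at 4 h against 2715 and 3479 at time 0 (log2 change 0.63). Both sat clearly above time 0. Bag3, an HSP70 exchange factor for damaged proteins, read 746 and 1043 at 4 h against 344 and 660 at time 0 (log2 change 0.86, adjusted p 0.211 without the replicate block). Hsph1, an HSP70 relative, and Chordc1, a partner of HSP90, rose by 0.45 and 0.38. Hspb8, a small heat shock protein, rose by 0.44 by its brightest probe set, but 2 other probe sets of the gene went the other way. Of 24 genes on the endoplasmic reticulum list, most of them for chaperones and disulfide isomerases, 5 rose and 1 fell. That is 25.0%, against 26.2% of all genes. The median log2 change was 0.05, and 1 rise also passed without the replicate block. The rises were 1 without replicate 1 of time 0 and 3 without replicate 2 of either time. The 2 largest were coat proteins of export vesicles: Sec24d read 1918 and 1526 at 4 h against 1107 and 1051 at time 0 (log2 change 0.66), and Sec23b rose by 0.48. Dnajb11, a co-chaperone of BiP, was the 1 chaperone to rise (0.33). The others called were Syvn1 (0.37) and Sel1l (-0.40), partners in degradation of misfolded proteins, and Sec61b (0.26), a subunit of the translocon. The Chordc1 promoter (chr9:18292017-18292316, plus strand, GRCm38.p6) is shown for its heat shock element, the repeat to which HSF1 binds, searched on both strands as TTC, 2 free bases, GAA, 2 free bases and TTC. Its capitals mark 3 overlapping matches. Such a match lies in 0.603% of all promoters, in 2 of the 8 heat shock genes that rose and in 2 of 4 others with an entry.
Chordc1: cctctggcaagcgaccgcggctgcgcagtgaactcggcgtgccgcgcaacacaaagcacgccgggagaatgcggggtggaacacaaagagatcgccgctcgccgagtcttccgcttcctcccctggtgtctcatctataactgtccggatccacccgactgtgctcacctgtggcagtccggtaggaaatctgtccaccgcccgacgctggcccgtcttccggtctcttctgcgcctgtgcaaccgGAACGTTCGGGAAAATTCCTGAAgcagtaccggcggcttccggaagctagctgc

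Antioxidant and metal genes split. Of 13 genes of the NRF2, thioredoxin and metallothionein list, 5 rose and 5 fell (76.9%, against 26.2% of all genes). Without the replicate block, 2 of the rises and 1 of the falls also passed. Known NRF2 targets stood on both sides. Osgin1, a growth inhibitor induced by NRF2, read 362 and 427 at 4 h against 191 and 168 at time 0 (log2 change 1.07, SE 0.11, adjusted p 1.01e-04). Gclc, the catalytic subunit of the first step of glutathione synthesis, read 916 and 1229 at 4 h against 531 and 630 at time 0 (log2 change 0.86). Srxn1, which repairs peroxiredoxins, read 1188 and 1363 at 4 h against 619 and 792 at time 0 (log2 change 0.85, adjusted p 0.0721 without the replicate block). All 3 were higher at 4 h in both replicates. Among the falls, Slc30a1, the zinc exporter of the cell surface, read 301 and 294 at 4 h against 769 and 724 at time 0 (log2 change -1.28, SE 0.09, adjusted p 5.13e-06). Hmox1, heme oxygenase, fell by 0.77 and Sqstm1, the autophagy adaptor p62, by 0.61, with adjusted p of 0.566 and 0.153 without the replicate block.

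Myc, the growth transcription factor, fell, while some genes of its network and of ribosome assembly rose. Myc read 29 and 58 at 4 h against 173 and 283 at time 0 (log2 change -2.04, SE 0.13, adjusted p 4.96e-06). Its 2 groups did not overlap, as was the case for 51.7% of all genes. Of the 30 genes tested on the list, 7 rose and 2 fell (30.0%, against 26.2% of all genes), with a median log2 change of 0.14. Without the replicate block, 2 rises and the fall of Myc also passed. The rises were 3 without replicate 1 of 4 h, 2 without replicate 1 of time 0 and 4 without replicate 2 of time 0. Nop56, a core protein of box C/D snoRNPs, read 485 and 514 at 4 h against 246 and 273 at time 0 (log2 change 0.91, SE 0.08, adjusted p 3.99e-05). Mxd4 and Mxd1, which compete with MYC for MAX, rose by 0.71 and 0.59, and Rrs1, a ribosome assembly factor, by 0.46. By contrast, host genes of small nucleolar RNAs fell: 6 of 10 were lower and none higher (median log2 change -0.34), 3 of them also without the replicate block and 3 without replicate 1 or replicate 2 of time 0. Snhg16 read 54 and 47 at 4 h against 145 and 189 at time 0 (log2 change -1.45, but 0.16 by another probe set and -0.64 by their mean), Snhg5 fell by 0.71 and Zfas1 by 0.63. Zfas1 read 210 on both arrays at 4 h against 334 and 332 at time 0. Of 22 cell cycle genes, 4 rose and 1 fell, none of them without the replicate block and the rises were 0 to 2 without any 1 of the 4 arrays. The share called was 22.7%, against 26.2% of all genes. Cdkn1a, the inhibitor p21, read 1975 and 2719 at 4 h against 1330 and 1991 at time 0 (log2 change 0.51), with overlapping ranges. The other rises were the cyclin genes Ccne2 (0.72), Ccna2 (0.62) and Ccnd1 (0.32). Ccna2 was dim, with a mean of 32 at 4 h and 15 at time 0. Mcm7, a subunit of the replicative helicase, fell by 0.56.

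The largest rises held several genes that were near the floor at time 0. Mir22hg, the host transcript of miR-22, was the largest and not one of these: it read 748 and 665 at 4 h against 121 and 129 at time 0 (log2 change 2.36, SE 0.11, adjusted p 4.66e-07), a 5.65-fold higher mean. Nme1, a nucleoside diphosphate kinase, read 2949 and 3263 at 4 h against 1211 and 808 at time 0 (log2 change 1.63, SE 0.17, adjusted p 1.00e-04). A second bright probe set of Nme1 gave 0.24, and the mean of its probe sets 0.94. Nufip2, an RNA-binding protein, read 566 and 675 at 4 h against 169 and 207 at time 0 (log2 change 1.64, SE 0.09, adjusted p 1.80e-06). Other probe sets of Nufip2 gave 0.62 and 0.58. The dimmer genes started from an intensity of 53 or less at time 0, where log2(intensity + 16) compresses ratios. Klhl30 read 88 and 78 at 4 h against 5 and 2 at time 0 (log2 change 2.35), and Ager, the receptor for glycated proteins, 142 and 80 at 4 h against 10 and 7 at time 0 (log2 change 2.33). Another probe set of Ager gave 1.01. Slc23a3, an orphan member of the ascorbate carrier family, rose by 2.06, Gzmm, a granzyme, by 1.82 and H3c11, a histone H3 gene, by 1.77. Gp1bb, a platelet glycoprotein subunit, rose by 1.60 (0.19 by another probe set) and Gm19325 by 1.59. 1700110K17Rik, which was brighter, read 348 and 401 at 4 h against 125 and 117 at time 0 (log2 change 1.51). Apex2, a DNA repair nuclease, rose by 1.88, but another probe set of the gene gave -0.03. H2-DMa, which loads MHC class II molecules, rose by 1.62 and lost its call without the replicate block (adjusted p 0.0637).

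Genes of beta cell identity were called about as often as all genes, in both directions. Of 23 tested, 3 rose and 4 fell (30.4%, against 26.2% of all genes), none of them without the replicate block, and the median log2 change was -0.02. Without replicate 1 of time 0, 1 rose and 1 fell, and 1 rose without replicate 2 of either time. Pdx1, the main transcription factor of beta cells, read 1329 and 867 at 4 h against 811 and 478 at time 0 (log2 change 0.77, SE 0.10, adjusted p 3.27e-04). Slc2a2, the glucose transporter GLUT2, read 1642 and 698 at 4 h against 2394 and 1251 at time 0 (log2 change -0.68, SE 0.09, adjusted p 3.09e-04). In both genes replicate 1 was higher than replicate 2 at each time. Each replicate moved the same way, but without the replicate block the adjusted p was 0.318 for Pdx1 and 0.525 for Slc2a2. Slc2a2 overlapped between the groups, and for Pdx1 the lower 4 h value lay just above the higher time 0 value. Glp1r, the receptor for the incretin GLP-1, read 89 and 83 at 4 h against 161 and 129 at time 0 (log2 change -0.65). Kcnj11, the pore of the ATP-sensitive potassium channel, and Trpm5, a cation channel, fell by 0.42 and 0.38, and Neurod1, a transcription factor, rose by 0.37. Of 15 genes of glycolysis and glucose transport, 3 rose and 2 fell (33.3%), 1 of the rises also without the replicate block. Without replicate 2 of time 0, 1 rose and none fell. Tpi1, triose phosphate isomerase, read 1627 and 1502 at 4 h against 1139 and 1144 at time 0 (log2 change 0.45), and Slc2a1, the transporter GLUT1, read 197 and 245 at 4 h against 294 and 587 at time 0 (log2 change -0.88, adjusted p 0.281 without the replicate block). Of 17 secreted growth factors and neuropeptides, 1 fell and none rose (5.88%, against 26.2% of all genes). It was Il6, a cytokine, with 3 and 33 at 4 h against 12 and 81 at time 0, and it did not pass without the replicate block (adjusted p 0.611), with no filter, with all 26 arrays, or without replicate 2 of either time.

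The 1 h arrays place some of these changes in time. At 1 h against time 0, 185 genes differed (1.47%), 123 higher (0.978%) and 62 lower (0.493%). At 4 h against 1 h 1765 differed (14%), 796 higher (6.33%) and 969 lower (7.7%). The 3 comparisons share arrays. In limma 1906 genes had an unadjusted p under 0.05 at 1 h (15.2%), but none passed without the replicate block or without replicate 1 of time 0, and 5 to 31 passed without any other 1 of the 4 arrays. Ddit3 read 3681 and 3397 at time 0, 1528 and 1507 at 1 h, and 308 and 423 at 4 h, with a log2 change of -1.21 at 1 h (adjusted p 9.22e-04). Depp1 had most of its fall at 1 h: it read 1294 and 2119 at time 0, 344 and 786 at 1 h, and 219 and 609 at 4 h (log2 change at 1 h -1.64). Klf15 and Myc also passed at 1 h, with log2 changes of -1.17 and -1.21. Stbd1, Dbp, Slc1a4 and Gpt2 did not pass at 1 h (log2 changes of -0.27, -0.27, -0.23 and -0.21). Among the rises, Mir22hg read 121 and 129 at time 0, 333 and 269 at 1 h, and 748 and 665 at 4 h, and Scd2 572 and 490, 881 and 784, and 1536 and 1460. Both increased at each step. Txnip did not: it read 328 and 259 at time 0, 304 and 270 at 1 h (log2 change -0.02, adjusted p 0.937), and 884 and 773 at 4 h. Nr4a1, an immediate early receptor, read 45 and 35 at time 0, 149 and 58 at 1 h, and 97 and 55 at 4 h. Slc30a1 read 769 and 724 at time 0, 962 and 793 at 1 h, and 301 and 294 at 4 h, so its fall came after 1 h.

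Islets kept for 2 days at 11 or 3 mM compare the same 2 concentrations on separate arrays. They are parallel cultures, not a switch from 3 to 11 mM as in the time course. Rose or fell after 2 days means higher or lower at 11 than at 3 mM. In that comparison 4503 genes differed (35.8%), 2347 higher (18.7%) and 2156 lower (17.1%) at 11 mM. Called in both were 1736 genes, 52.8% of the 4 h list and 38.6% of the 2-day list. Of these, 1555 changed in the same direction (47.3% of the 4 h list) and 181 in opposite directions (5.5% of the 4 h list). As shares of all 12580 genes tested, the 181 were 1.44%. Among them 92 were higher at 4 h but lower after 2 days (0.731% of all genes) and 89 the reverse (0.707%). Across the 12580 genes the 2 log2 changes had a Pearson correlation of 0.417, as a description with no shared arrays. A direct test of the 4 h change minus the 2-day change called 1902 genes (15.1%), 943 higher (7.5%) and 959 lower (7.62%). The count was 785 without replicate 1 of time 0, and 543 without the replicate block.

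The stress genes Ddit3 and Trib3 fell in both settings, with log2 changes of -3.24 and -3.10 at 4 h and of -3.86 and -2.89 after 2 days. Chac1 did not: after 2 days it read 1279 and 999 at 11 mM against 1019 and 1050 at 3 mM, a difference from the 4 h change of -2.39 (SE 0.20, adjusted p 1.85e-05). Of the 12 stress genes that fell at 4 h, 10 fell after 2 days. Of the 9 amino acid enzymes that fell at 4 h, 1 fell after 2 days, 5 rose and 3 did not pass, and the median of the list was -0.35 at 4 h and 0.37 after 2 days. The difference was called for 13 of the 17, 12 of them lower at 4 h. The 5 that turned were Phgdh, Shmt2 and, named after their values were seen, Psat1, Aldh1l2 and Asns. Phgdh changed by -0.51 at 4 h and 0.52 after 2 days (difference -1.03, adjusted p 0.00181).

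**Figure D4:**
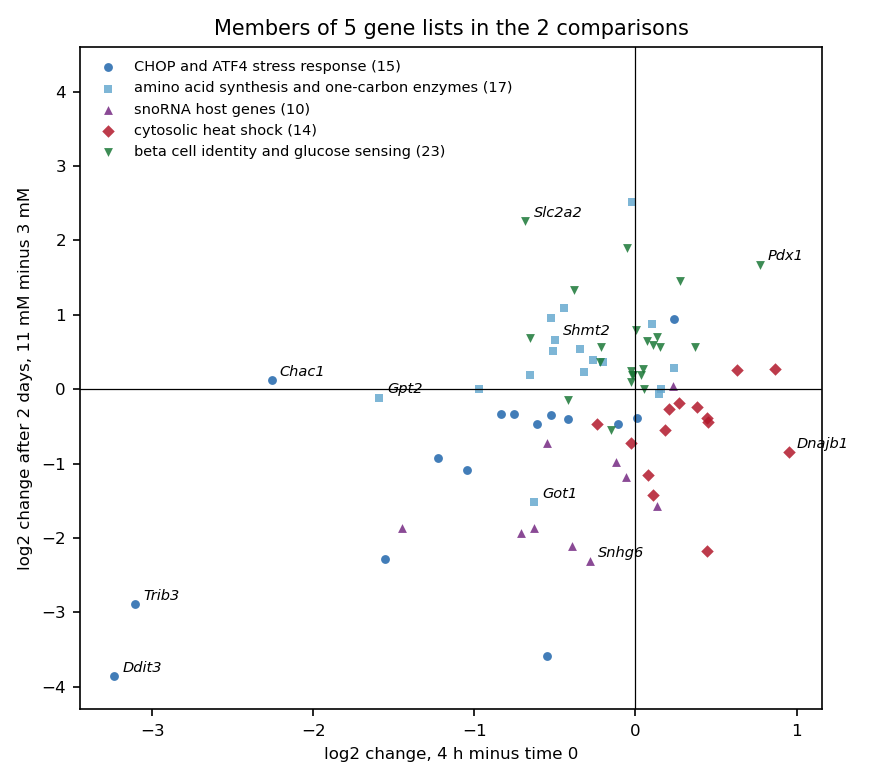
The log2 change after 2 days at 11 against 3 mM (vertical axis) against the log2 change at 4 h against time 0 (horizontal axis) for the members of 5 lists, 1 symbol per gene. Ddit3 and Trib3 lie low in both, snoRNA host genes lie lower after 2 days than at 4 h, and Slc2a2 lies left of 0 at 4 h and above 0 after 2 days.

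Heat shock genes parted between the settings. Of the 8 that rose at 4 h, none rose after 2 days and 5 fell, and 10 of the 14 members fell after 2 days. Dnajb1 read 701 and 650 after 2 days at 11 mM against 1198 and 1252 at 3 mM, a log2 change of -0.84 (difference 1.79, SE 0.19, adjusted p 1.35e-04). Genes of beta cell identity also parted. After 2 days 13 of 23 were higher at 11 mM and 1 lower, and the difference was called for 11, all lower at 4 h. Slc2a2 read 6589 and 4819 after 2 days at 11 mM against 1282 and 1049 at 3 mM, a log2 change of 2.27 (difference -2.95, SE 0.19, adjusted p 2.94e-06). Pdx1 rose in both, by 0.77 at 4 h and by 1.68 after 2 days (difference -0.91, adjusted p 0.00331). Txnip and Scd2 rose in both, by 1.45 and 1.47 at 4 h and 1.10 and 1.68 after 2 days, and the differences did not pass (0.36 with SE 0.16, and -0.21 with SE 0.21). Genes that fell in both could differ in size: Stbd1 had log2 changes of -1.70 at 4 h and -4.43 after 2 days, and Cyb5r1, a reductase of the NADH-cytochrome b5 family, of -0.39 at 4 h and -2.91 after 2 days. All 6 snoRNA host genes that fell at 4 h also fell after 2 days, where the list's median was -1.72. On the 14 arrays of this test the labels give no date of processing, and the Gapdh 5′ to 3′ ratio was 0.120 to 0.159 for these 4 arrays of 2-day culture and 0.226 to 0.275 for the 4 arrays at 4 h and time 0.

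**Figure D5:**
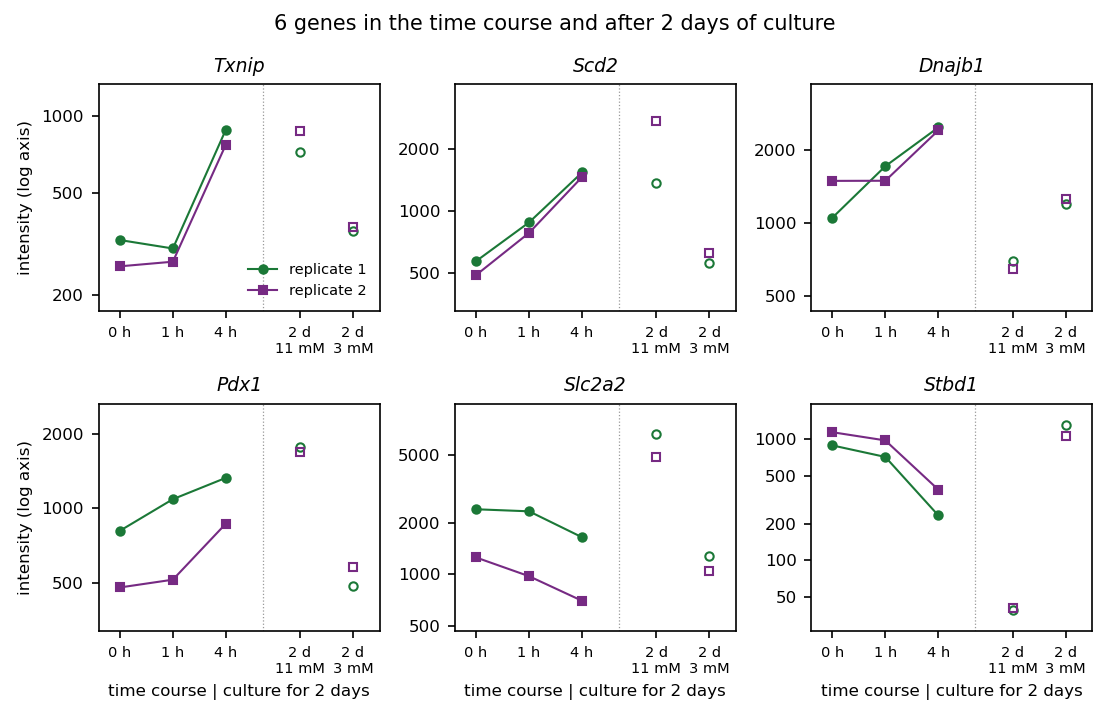
Intensity on a log axis for 6 genes at time 0, 1 h and 4 h of the time course (lines, 1 per replicate) and, right of the dotted line, after 2 days at 11 mM and at 3 mM (open symbols). Txnip, Scd2 and Pdx1 were higher at 11 mM in both settings, Stbd1 was lower in both, and Dnajb1 and Slc2a2 had opposite directions.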

How the data were processed

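RNA of mouse islets was measured on one-colour oligonucleotide arrays. Trizol extraction and 2 cycles of cDNA synthesis from 50 ng of total RNA preceded hybridisation, per the labels' protocols. What the authors deposited are linear MAS5 intensities in whole numbers, scaled by the authors to a trimmed mean of 150 on each array, per the submitters' processing notes and the values. Precision is limited by how few arrays there are.

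The value tested was log2(intensity + 16) with no further scaling. Of 45101 probe sets, 34945 had 1 gene symbol, 932 several and 9160 none. A probe set was kept if it exceeded its array's median on at least 2 of the 26 arrays, and the brightest stood for its gene, which left 12580 genes. Values of a gene's other probe sets are given for some named genes only, and such sets could give smaller changes. The 6 time course arrays were fitted with limma 3.58.1 in R 4.3.3, with time and replicate number as terms and an intensity trend, and adjusted p under 0.05 (Benjamini-Hochberg) counted as a call. Same-numbered arrays carry the same biological replicate number in the labels and deviated together from their group means (correlation 0.551 between 4 h and time 0, and 0.606 and 0.63 with 1 h). The 2-day comparison used 14 arrays of young islets and left out replicates 3 and 4 at 11 mM, whose Gapdh 5′ to 3′ ratio was 1.26 and 1.03. Its fit also had replicate number as a term, separately in the time course and in the 2-day cultures. In the 2-day cultures same-numbered arrays deviated together less, with a correlation of 0.169 between 3 and 11 mM. On simulated data for 4 h against time 0 over 12580 genes, 91% of changes of log2 size 1 and 64% of size 0.5 were recovered, and 5.49% of calls were false. The simulation changed 200 genes and drew independent noise from the fitted spread, with the fitted replicate effect. Its rates hold for that model only and do not measure the share of false calls in the real data.

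The genes named are the 15 largest rises and 15 largest falls among called genes with groups that do not overlap, the 6 members at most per list whose p was smallest, and 15 further genes. The comparison and the lists were chosen with earlier results of these data known. Other offsets, filters, scalings, probe set rules, array sets and fits without 1 array or without the replicate block were tried.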

Additional observations from a re-analysis of the deposited data

Results flagged for a closer look

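The 4 h change and the 2-day change were compared by a direct test of their difference, and 1902 genes passed it (limma, adjusted p under 0.05). The named genes given next were called in opposite directions in the 2 comparisons. Of these 17 genes, 12 lost their 4 h call without the replicate block, and 5 kept it: Fbxo32, 1700110K17Rik, Dnajb1, Nop56 and Tpi1. Lower at 4 h and higher after 2 days were Slc2a2 (difference -2.95), C1qa, a complement subunit of macrophages (-1.98), Fbxo32 (-1.94), Trpm5 (-1.71), Glp1r (-1.33), Shmt2 (-1.17), Phgdh (-1.03) and Mlxipl (-0.91). Higher at 4 h and lower after 2 days were 1700110K17Rik (difference 3.38), Dnajb1 (1.79), Nop56 (1.43), Cdkn1a (1.37), Rrs1 (0.98), Hsph1 (0.88), Tpi1 (0.84), Hspb8 (0.83) and Chordc1 (0.62). The adjusted p of these differences ran from 2.87e-06 for 1700110K17Rik to 0.00633 for Mlxipl. C1qa changed by -0.46 at 4 h and by 1.52 after 2 days (adjusted p at 4 h 0.269 without the replicate block), and the part of macrophages in it was not tested.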

How the results depend on the processing

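Of the 3290 genes called at 4 h, the count stayed within 1.5 times under other offsets, a filter on all time course arrays, quantile scaling, the mean of probe sets and a fit of 4 h and time 0 alone (2823 to 3461). It was 1853 with no filter, 1986 with no intensity trend, 687 with no replicate block, 714 with all 26 arrays and the replicate block and 621 with all 26 arrays and no block. Without any 1 of the 4 arrays it was 1197 to 2493. Of the 141 named genes called, 51 kept the call under every alternative in which they were tested, and without the replicate block 43 of 83 falls and 34 of 58 rises lost it. Hspb8 turned to -0.0302 (adjusted p 0.878) with the mean of its probe sets. The count at 1 h was 0 with no filter and with no replicate block in limma, against 185 (1906 at an unadjusted p under 0.05), and 0 to 31 without 1 array. At 4 h against 1 h it was 414 with no filter, 15 with no replicate block and 404 to 1276 without 1 array, against 1765. After 2 days it was 2809 with no replicate block, against 4503, and 3035 to 3519 without 1 array. The count of differences was 543 with no replicate block, 309 with replicates 3 and 4 at 11 mM included and 785 to 1601 without 1 array, against 1902. The cause of these shifts was not tested.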

Other observations

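Gene families outside the lists were grouped by their symbols after the values were seen, so they get no test of the group. Over all genes 12.7% rose and 13.4% fell at 4 h against time 0, and 2.65% and 2.81% without the replicate block. Of 45 genes for subunits, regulators and assembly factors of the proteasome, 16 rose and 2 fell, with a median log2 change of 0.17, and 6 rose and none fell without the replicate block. Psmd6, a lid subunit of the regulatory particle, rose by 0.68, and the 2 falls were Psme3, an activator (-0.77), and Psmg2, an assembly chaperone (-0.34). Of 34 genes named for RNA-binding motifs, 11 rose and 2 fell, and 5 rose and 2 fell without the replicate block. Of 19 hnRNP genes, which bind nascent transcripts, 7 rose and 3 fell, and 3 rose and none fell without the replicate block. All 5 tubulin genes that passed, of 11, rose, and 4 passed without the replicate block. Among 14 Krüppel-like factors, 6 fell and none rose (median log2 change -0.33), with 5 falls under quantile scaling and 3 without the replicate block.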
